A study of Mus musculus with 33 samples.

Results

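Microglia are the resident macrophages of the brain parenchyma. They were studied here as 433 of the 9665 brain cells kept for analysis (4.48%) in a single-cell RNA-seq survey of tissues labelled by SAMENT, a method in which an enzyme carried by tumour cells attaches biotin to cells near them. The cells were chosen by the measured counts of 5 genes: a microglia had 1 or more UMIs (counted RNA molecules) for 3 or more of Gpr34, P2ry12, Tmem119, Sall1 and Sparc. Barcodes were kept from 500 UMIs and 200 detected genes upwards, with no more than 15% of UMIs mitochondrial. Levels of the 5 genes are therefore a description only.

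The 8 brain samples came from mice given an intracardiac injection. They were taken after about 10 h of substrate labelling, digested with collagenase A at 37°C for 45 min and sorted. Of these samples 4 held the biotin positive sort, the cells tagged near tumour cells, and 4 held the biotin negative sort, the remaining cells. The sources used here do not state strain, sex, age, genotype or the injected tumour line, and no sample from uninjected mice was analysed. The labels do not say whether replicates were separate animals, so p-values measure the spread between these samples, which may be technical.

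Microglia arise from yolk sac precursors, persist by self-renewal and survey the parenchyma with motile processes. Their resting programme depends on CSF1 receptor and TGF-beta signalling and on the transcription factor SALL1. They sense ATP and ADP through the purinergic receptor P2RY12. Border-associated macrophages, which lie in the meninges, choroid plexus and perivascular spaces, and classical monocytes, which come from blood, are the neighbouring myeloid populations from which microglia have to be told apart.

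The rule genes lie on 5 chromosomes of the mouse GRCm38 (mm10) assembly in GENCODE vM21. Gpr34, a lysophospholipid receptor gene, spans chrX:13632089-13640858 on the plus strand. P2ry12 spans chr3:59216272-59262871, Tmem119, a membrane protein gene used as a microglia marker, chr5:113793729-113800516, Sall1 chr8:89027235-89044162, and Sparc, a secreted matrix glycoprotein gene, chr11:55394500-55423183, each on the minus strand. All 5 are protein coding. The RefSeq promoter windows (250 bases before to 50 bases after a start, GRCm38.p6) were matched for P2ry12, Sparc and Sall1, and those of P2ry12 and Sparc are shown because, of these 3 genes, they were carried by the most microglia (422 and 414 of 433, against 271 for Sall1). Capitals mark letters of the motifs searched, GAGGAA (the core bound by PU.1), TGACTCA (AP-1) and TGTGGT (the RUNX core), on either strand.
P2ry12, chr3:59262936-59263235, minus strand: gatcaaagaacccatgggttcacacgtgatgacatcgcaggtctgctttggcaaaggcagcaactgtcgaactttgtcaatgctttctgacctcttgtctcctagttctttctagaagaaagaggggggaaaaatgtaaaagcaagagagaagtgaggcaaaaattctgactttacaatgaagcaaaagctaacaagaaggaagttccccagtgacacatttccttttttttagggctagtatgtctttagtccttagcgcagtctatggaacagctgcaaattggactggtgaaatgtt
Sparc, chr11:55420031-55420330, minus strand: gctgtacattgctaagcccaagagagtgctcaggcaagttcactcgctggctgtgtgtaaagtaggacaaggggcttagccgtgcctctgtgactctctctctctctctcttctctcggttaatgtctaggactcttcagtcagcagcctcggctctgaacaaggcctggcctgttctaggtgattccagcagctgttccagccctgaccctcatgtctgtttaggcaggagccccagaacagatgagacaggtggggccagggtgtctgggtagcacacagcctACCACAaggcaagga
The Sparc window held 1 match, to the RUNX core on the opposite strand, and the P2ry12 window held none. Each of the 3 Sall1 windows in the table also held none. Over 32851 promoter windows of the same length, 28.3% held the PU.1 core, 5.20% the AP-1 motif and 16.8% the RUNX core. The matches describe these letters in these windows only.

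Among the other rule genes, Gpr34 was carried by 419 microglia, Tmem119 by 401 and Sall1 by 271. All 5 genes were found in 242 cells, 4 in 144 and exactly 3 in 47. Levels of genes that did not enter the rule differed with the number of rule genes, over cells pooled from all samples. Cx3cr1, the fractalkine receptor gene of microglia, stood at 42.8 CPM (gene UMIs scaled to the same total in each set of cells) in the 8100 cells with none, 86.0 in 990 cells with 1 and 284 in 142 cells with 2. Just inside the threshold, at exactly 3, it stood at 1294 CPM, and it reached 2154 at 4 and 2881 at 5. Mrc1, the mannose receptor of border-associated macrophages, ran the other way among cells near the threshold, at 2064 CPM with 2 rule genes, 499 with 3 and 60.1 with 4. Apoe, the lipid carrier, stood at 30547 CPM with 2 rule genes, 23239 with 3, 12565 with 4 and 5109 with 5. The mix of samples changed along these steps, with 40 of 142, 11 of 47, 14 of 144 and 10 of 242 cells from the negative sort. Within positive sample 4, which held the most microglia, Apoe was at 26674, 21565, 12869 and 4235 CPM, whereas negative sample 4 gave 19159, 16166, 32357 and 18174 CPM, from 12, 3, 8 and 8 cells. The cells at exactly 3 genes made up 31.4% of the negative microglia (11 of 35) but 9.05% of the positive ones (36 of 398).

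The label was checked against genes outside the rule. After thinning each cell to 1000 UMIs, Cx3cr1 was found in 86.3% of microglia, against 5.72% of cells in the border-associated macrophage gate (at least 3 of Mrc1, Lyve1, Cd163, Cbr2 and Folr2), 2.33% in the neutrophil gate and 0.705% in the lymphocyte gate, which serve as background for free RNA. Without thinning these shares were 97.9%, 13.6%, 5.92% and 1.83%. Lists of markers of other brain cells summed to low levels. The summed neuron list gave at most 4.84 CPM in any sample, with Snap25, Syt1, Stmn2 and Gad1 at 0 throughout, and the endothelial and mural list gave at most 63.6 CPM with Cldn5 at 0. The oligodendrocyte list gave 36.8 to 79.2 CPM in the positive and 57.2 to 111 CPM in the negative samples, with Mog at 0. The astrocyte list reached 201 CPM, nearly all of it from the glutamate transporter gene Slc1a3, while Gfap and Clu were at 0.

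Overlap with other myeloid gates was uneven. Of the microglia 10 also passed the border-associated macrophage gate, 3 the classical monocyte gate (at least 3 of Ly6c2, Ccr2, Vcan, F13a1 and Ms4a4c) and 4 the lymphocyte gate (at least 2 of 8 genes). The neutrophil gate (at least 3 of S100a8, S100a9, Retnlg, Csf3r and Cxcr2) was passed by 360 (83.1%). S100a8 stood at 863 CPM in the lymphocyte gate and 127656 CPM in the neutrophil gate. In microglia it ran from 412 to 1408 CPM in the positive samples and was 370, 46575, 1292 and 7427 CPM in the negative samples 1 to 4, and the 47 cells at exactly 3 rule genes stood at 9484 CPM against 969 CPM with 4 and 1330 CPM with 5. Csf3r, the granulocyte colony-stimulating factor receptor gene, was at 222 CPM in microglia, near the 289 CPM of the neutrophil gate and above the 1.20 CPM of the lymphocyte gate. Cells passing the neutrophil gate were kept. After thinning, S100a8 was found in 58.2% of microglia and 58.5% of the lymphocyte gate.

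The same rule applied to 45701 kept cells of bone, liver and lung found 16 cells, 4, 5 and 7 of them in turn. None of those 16 carried 4 or 5 rule genes, whereas 386 of the 433 brain cells did. Their Siglech levels, a sialic acid-binding lectin gene of microglia, were 32.1 CPM in bone, 19.5 in liver and 7.75 in lung, against 925 in brain, while Cx3cr1 was at 498, 1367 and 264 CPM against 2470 CPM.

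**Figure D1:**
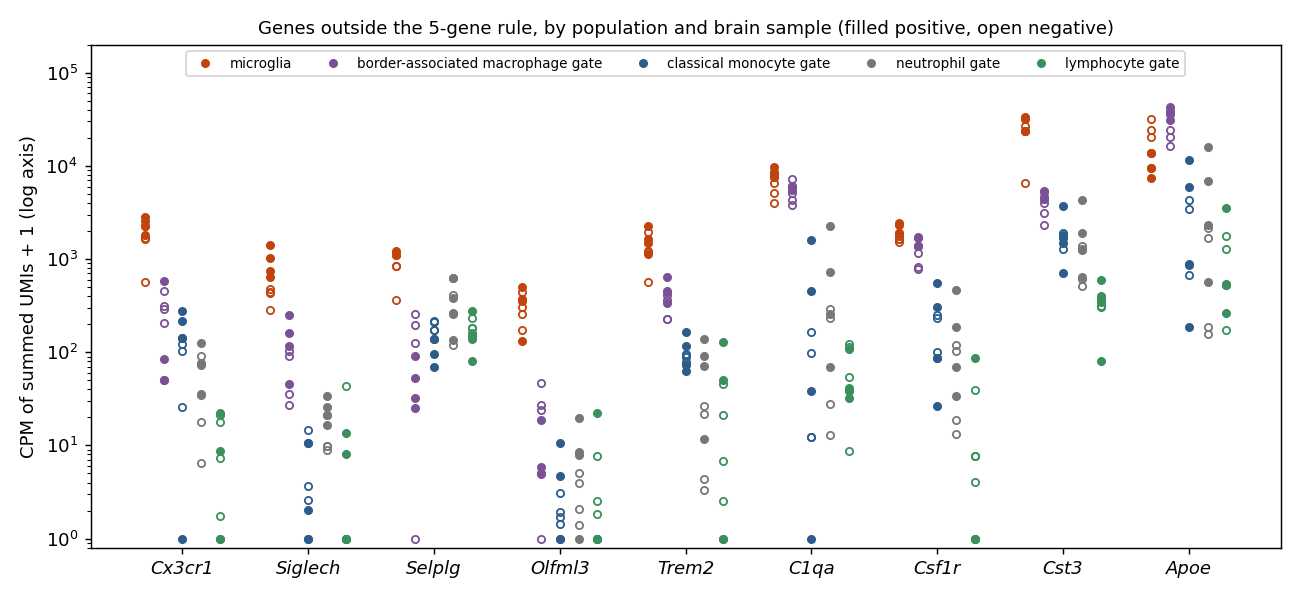
CPM of summed UMIs plus 1 (log axis) for 9 genes outside the rule in microglia and in the gates for 4 other populations, with 1 point per brain sample (filled, biotin positive; open, biotin negative). Microglia stand above every other gate in every sample for Olfml3, whereas their C1qa and Apoe levels overlap those of border-associated macrophages.

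The brain samples held 310 to 2857 kept cells each, and the median depth of microglia in a sample ran from 3652.5 to 7148 UMIs. In the summed microglia of negative samples 1 to 4, 1 UMI equalled 37.0, 19.1, 36.9 and 9.08 CPM. Low CPM there therefore rest on few UMIs. Cell multiplexing tags were deposited with the counts. The sample's own tag was the highest in 432 of the 433 microglia, the exception being 1 of the 3 cells of negative sample 1, and the tag of the other brain sort was never higher. No barcode was shared among the 112 pairs of samples with the same replicate number, against 325 shared barcodes over 384 pairs with different numbers, at most 7 in a pair. Negative sample 2 stood apart. It held 7 microglia, and S100a8 reached 46575 CPM in them, with 1 of the 7 cells above 1% of UMIs from S100a8 and S100a9.

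The first comparison asked how many microglia the biotin sort recovered. Microglia were a larger share of the positive sort in all 4 replicate pairs. In the positive samples 1 to 4 they were 3.80% (21 of 552 cells), 3.70% (25 of 675), 20.6% (64 of 310) and 43.0% (288 of 669). The negative samples held 0.146% (3 of 2048), 0.481% (7 of 1456), 0.546% (6 of 1098) and 0.665% (19 of 2857). The 2 sorts did not overlap, and positive samples 3 and 4 stood far above positive samples 1 and 2. Exact 95% binomial intervals ran from 2.37% to 5.76% for positive sample 1 and from 39.3% to 46.9% for positive sample 4. They cover counting error only.

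Mean shares were 17.8% ± 18.6 (SD, n = 4) in the positive sort and 0.460% ± 0.222 (SD, n = 4) in the negative sort. The difference of 17.3 percentage points had p = 0.0286 in a two-sided exact permutation test, the smallest this design allows. With pairs kept together by replicate number the exact p was 0.125, again the smallest possible over 16 assignments. The difference rested largely on 1 library, since it was 8.92 percentage points without positive sample 4. Within pairs, the share in the positive sort was 7.70 to 64.7 times that in the negative sort. In edgeR's quasi-likelihood test on cell numbers over 6 populations, microglia were higher in the positive sort by 5.25 on the log2 scale (SE 0.97, adjusted p = 0.000983).

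Border-associated macrophages were also more numerous in the positive sort, by 4.97 on the log2 scale (SE 0.98, edgeR adjusted p = 0.000983). The 2 brain macrophage populations divided differently among the samples. Cells of the border-associated gate numbered 130, 401, 17 and 43 in the positive samples 1 to 4 and 5, 21, 11 and 11 in the negative samples. Microglia were 13.9%, 5.87%, 79.0% and 87.0% of both populations together in the positive samples, and 37.5%, 25.0%, 35.3% and 63.3% in the negative samples. The means of 46.4% ± 42.5 and 40.3% ± 16.3 (SD, n = 4 each) had p = 0.8 in the exact permutation test. Classical monocytes went the other way, at −2.36 on the log2 scale (SE 0.66, edgeR adjusted p = 0.00850), with 9 to 46 cells in the positive samples and 205 to 650 in the negative ones. Recovery of cells by dissociation and sorting cannot be told apart from their number in the tissue.

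**Figure D2:**
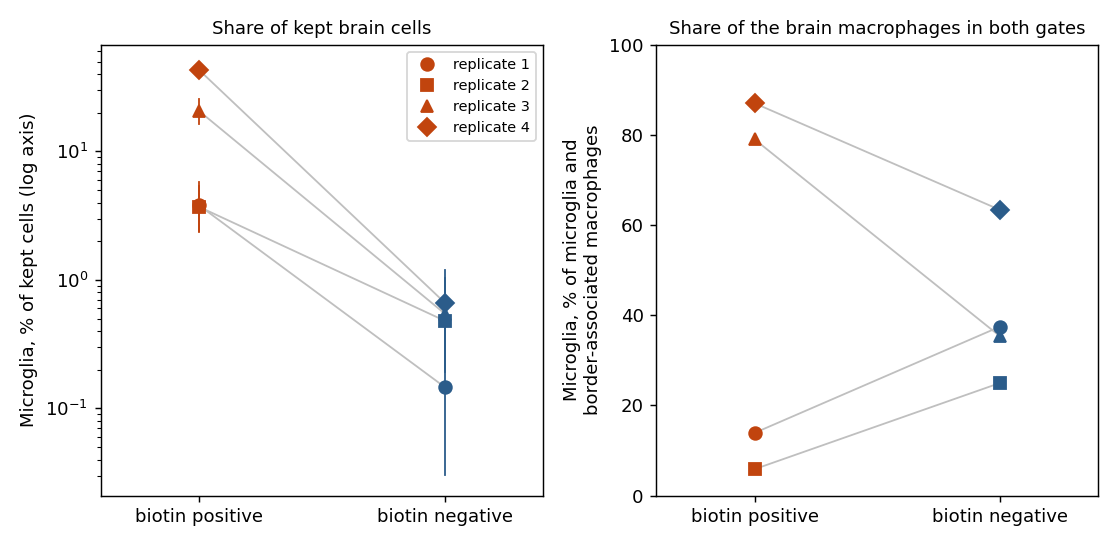
Left, microglia as a percentage of kept cells (log axis) in the biotin positive and negative sort of each replicate, with exact 95% binomial intervals; lines join samples with the same replicate number. Right, microglia as a percentage of microglia and border-associated macrophages together, where 2 replicates are higher in the positive sort and 2 are lower.

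Microglia were next compared with border-associated macrophages of the same libraries, in the 5 samples with at least 10 cells of each (the positive samples 1 to 4 and negative sample 4), with the sample as a block. Cx3cr1, Tgfbr1 and Olfml3 were among the genes higher in microglia, and Apoe, Pf4, Ccl2, Ccl7 and Ccl24 among those higher in border-associated macrophages. The genes of both gates were left out of the counts, and other genes that go with them are not independent of how the cells were chosen. Of 2765 genes tested by edgeR at an adjusted p under 0.05, 343 (12.4%) were higher and 332 (12%) were lower in microglia. Without positive sample 4 the counts were 213 and 213.

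Cx3cr1 gave 2265, 1818, 2845, 2569 and 2252 CPM in microglia of the positive samples 1 to 4 and negative sample 4, and 49.4, 49.8, 574, 83.3 and 288 CPM in the border-associated cells. The populations did not overlap, and the log2 fold change was 4.17 (SE 0.43, edgeR adjusted p = 1.48e-05). Selplg, the selectin ligand gene, was higher by 4.38 (SE 0.32, edgeR adjusted p = 1.17e-06).

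Of 30 homeostatic microglia genes outside the rule 29 were tested, and 25 were higher and none lower, against 12.4% and 12% of all genes. Their median log2 fold change was 1.56, beside −0.003 over all genes tested. The list was chosen with earlier results of these data known. Olfml3, a secreted matrix protein gene, ran from 131 to 500 CPM in microglia and from 0 to 18.0 CPM in border-associated cells, 5.56 higher on the log2 scale (SE 0.36, edgeR adjusted p = 5.61e-07). Complement C1qa differed far less. Its means were 8286 CPM in microglia and 5725 CPM in border-associated cells, 0.44 apart on the log2 scale (SE 0.13, edgeR adjusted p = 0.0280). That call did not hold without positive sample 2 (adjusted p = 0.0779), without positive sample 4 (0.0802) or without negative sample 4 (0.0691). Over all alternatives its adjusted p ran up to 0.0815. In the samples tested C1qa ran from 7510 to 9626 CPM in microglia and from 5125 to 6149 CPM in border-associated cells.

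By the rule for named genes, the 10 largest differences in favour of microglia were Nav3, Ecscr, Lrrc3, Plxdc2, Cd34, Serpine2, Adamts1, Olfml3, Ldhb and Phgdh, each higher in 5 of 5 samples. Nav3, a microtubule-binding navigator protein gene, had 517 UMIs in microglia and none in border-associated cells, so it was at least 201-fold higher, taking 3 counts over the group as the floor. Ecscr, an endothelial cell surface regulator gene, had 296 UMIs against none and was at least 115-fold higher. For Lrrc3 (292 UMIs against 3) the ratio of pooled levels was 114, with a 95% counting interval of 38.5 to 554. Adamts1, a secreted metalloprotease gene, ran from 250 to 892 CPM in microglia and from 0 to 7.04 CPM in border-associated cells, 6.11 higher on the log2 scale (SE 0.40, edgeR adjusted p = 5.61e-07). Serpine2, a secreted protease inhibitor gene, was higher by 6.13 (SE 0.34) and Phgdh, the first enzyme of serine synthesis, by 4.98 (SE 0.38).

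On the other side the 10 lowest genes were Gpx3, Cd38, Mgl2, Pltp, Ccl24, Ccl8, Pf4, Ifi203, Clec10a and Ccl7, each lower in 5 of 5 samples. The Ccl8 call was lost with samples of at least 5 cells of both populations entered (−3.56, edgeR adjusted p = 0.0614, against −5.33), and in positive sample 2 its levels were 105 and 115 CPM. Ccl7, Ccl8 and Ccl24 encode chemokines, and Mgl2 and Clec10a are C-type lectins. Ccl24 ran from 8.55 to 45.8 CPM in microglia and from 544 to 754 CPM in border-associated cells, −5.37 on the log2 scale (SE 0.35, edgeR adjusted p = 5.61e-07). Pf4, the platelet factor 4 gene that border-associated macrophages also express, was at 228, 144, 0, 11.5 and 54.5 CPM in microglia and at 1256 to 2400 CPM in border-associated cells. Mrc1 itself, a gate gene and not tested, stood at 530 and 425 CPM in the microglia of positive samples 1 and 2 and at 2.85 and 36.3 CPM in those of positive samples 3 and 4. In positive sample 1 all of it came from the 3 cells at exactly 3 rule genes (3425 CPM), with 0 CPM at 4 and at 5. Positive sample 2 gave 960 CPM at 3 rule genes, 170 at 4 and 379 at 5. In the negative samples 1 to 4 Mrc1 was at 370, 363, 36.9 and 236 CPM, where 36.9 CPM was 1 UMI. The part of border-associated cells or their free RNA in the microglia values was not tested.

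Of 14 tested genes of a list of growth factor, CSF1 and TGF-beta signalling, which also holds cytokine receptors, 7 were higher in microglia (Csf1r, Csf3r, Il10ra, Pdgfb, Bmp2k, Tgfbr1 and Smad7) and 2 lower (Igf1 and Nrros), against 12.4% and 12% of all genes, with a median log2 fold change of 0.56 beside −0.003. Csf1r, the CSF1 receptor gene, had means of 2067 and 1327 CPM, 0.56 apart on the log2 scale (SE 0.16, edgeR adjusted p = 0.0208). That call was lost without positive sample 2 (0.0737), without negative sample 4 (0.0545) and without the block (0.0699). Tgfbr1, the type I TGF-beta receptor gene, had means of 718 and 111 CPM, 2.77 apart on the log2 scale (SE 0.26, edgeR adjusted p = 6.42e-06), and its feedback inhibitor Smad7 was higher by 4.68 (SE 0.41, edgeR adjusted p = 3.93e-06). Igf1, a growth factor gene, was lower by −3.64 (SE 0.29, edgeR adjusted p = 2.23e-06). Of 12 tested purinergic and chemotactic receptor genes 5 were higher, among them the medium-chain fatty acid receptor gene Gpr84 (4.59, SE 0.35), and 3 were lower, among them the ATP receptor gene P2rx7, against the same 12.4% and 12%.

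Of 15 tested genes of the inflammatory list 7 were higher and 5 lower in microglia, against 12.4% and 12% of all genes. The higher ones were the cytokine and chemokine genes Il1a, Il1b, Tnf and Ccl4 together with Icam1 (an adhesion molecule), Nlrp3 (an inflammasome sensor) and Cd83 (a surface protein), and the lower ones were the chemokine genes Ccl2, Ccl7, Ccl9, Ccl12 and Cxcl2. The Cxcl2 call was lost without the block (−2.55, edgeR adjusted p = 0.0527). Ccl4, the member with the most CPM in microglia, had means of 4327 and 1545 CPM, 2.60 apart on the log2 scale (SE 0.66, edgeR adjusted p = 0.0122). That call was lost without the block (1.38, edgeR adjusted p = 0.318), after thinning (1.90, edgeR adjusted p = 0.0561) and with at least 5 cells of both populations (1.72, edgeR adjusted p = 0.112). Il1a, the interleukin 1 alpha gene, was higher by 4.00 on the log2 scale (SE 0.34, edgeR adjusted p = 3.12e-06). The monocyte chemoattractant gene Ccl2 was lower by −2.90 (SE 0.21, edgeR adjusted p = 1.15e-06), with means of 261 CPM against 1806 CPM. Of 4 tested interferon response genes all 4 were lower (12% of all genes), Ifitm3 by −2.89 (SE 0.24, edgeR adjusted p = 2.84e-06). Against the same share, 3 of 7 tested neutrophil list genes and 3 of 4 tested monocyte list genes were lower, and 1, Csf3r, was higher. The part of RNA from such cells in the border-associated gate was not tested. Among 10 tested checkpoint and inhibitory receptor genes 5 were higher and 2 lower, again against 12.4% and 12%. Lag3, an inhibitory receptor best known in T cells, had means of 170 and 1.80 CPM, 4.88 apart on the log2 scale (SE 0.42, edgeR adjusted p = 3.62e-06), and Vsir, which encodes the checkpoint protein VISTA, was higher by 1.47 (SE 0.18, edgeR adjusted p = 7.41e-05). In the T and NK cell list, Klrb1c was at 0 in microglia of every sample and the list summed to at most 71.3 CPM.

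Apoe was lower in microglia by −1.60 on the log2 scale (SE 0.31, edgeR adjusted p = 0.00192). The positive samples gave 13615, 9573, 9565 and 7418 CPM in microglia and 42565, 36940, 36313 and 31440 CPM in border-associated cells. Negative sample 4 differed from them, with 24532 CPM in microglia and 20214 CPM in border-associated cells, so the direction held in 4 of 5 samples. Of 16 tested genes of the disease-associated microglia list 4 were higher (Cd9, Ctsd, Ctsl and Trem2) and 4 lower (Apoe, Igf1, Ccl6 and Ctsb), against 12.4% and 12% of all genes. Trem2, the lipid-sensing receptor gene, was higher by 1.77 (SE 0.19, edgeR adjusted p = 1.66e-05), with means of 1690 and 459 CPM.

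Against classical monocytes the separation was wider. In the 4 samples with at least 10 cells of each population (positive samples 1 to 3 and negative sample 4), 447 of 2147 genes tested (20.8%) were higher and 452 (21.1%) lower in microglia by edgeR. The counts were 305 and 235 without positive sample 1, and 307 and 247 without negative sample 4. Of 29 tested homeostatic genes 26 were higher and none lower, with a median log2 fold change of 4.10 beside −0.07 over all genes. Lysosome and phagocytosis genes were higher in 14 of 18, complement and Fc receptor genes in 8 of 12 with C3 the 1 lower gene, and purinergic and chemotactic receptor genes in 8 of 10.

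The 10 highest genes in this comparison were Adamts1, Lrrc3, Nav3, Olfml3, Pmepa1, Rasgrp3, Nuak1, Siglech, Tanc2 and Lag3. Siglech gave 1412, 634, 738 and 436 CPM in microglia and 1.05, 9.74, 0 and 1.61 CPM in monocytes, 8.31 apart on the log2 scale (SE 0.60, edgeR adjusted p = 0.000227). Pmepa1, a TGF-beta target gene, had means of 463 and 5.69 CPM (log2 fold change 8.82, SE 0.85). Lrrc3 had 79 UMIs in microglia and none in monocytes and was at least 280-fold higher. The 10 lowest were Thbs1, Plac8, Gda, S100a10, Fn1, Mgst1, Chil3, Plbd1, Apoc2 and S100a4. Fn1, the fibronectin gene, gave 132, 45.8, 48.5 and 9.08 CPM in microglia and 492 to 1608 CPM in monocytes (−4.68, SE 0.75, edgeR adjusted p = 0.00310), and S100a4, a calcium-binding protein gene of motile cells, was lower by −4.37 (SE 0.75). Apoe did not pass this test (means of 14321 and 4786 CPM, log2 fold change 2.16, edgeR adjusted p = 0.105). It passed with DESeq2 (2.22, adjusted p = 0.0192), with no filter on low counts (2.03, edgeR adjusted p = 1.23e-07), with at least 5 cells of both populations (2.88, edgeR adjusted p = 0.00381) and without positive sample 2 (3.17, edgeR adjusted p = 0.0214).

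**Figure D3:**
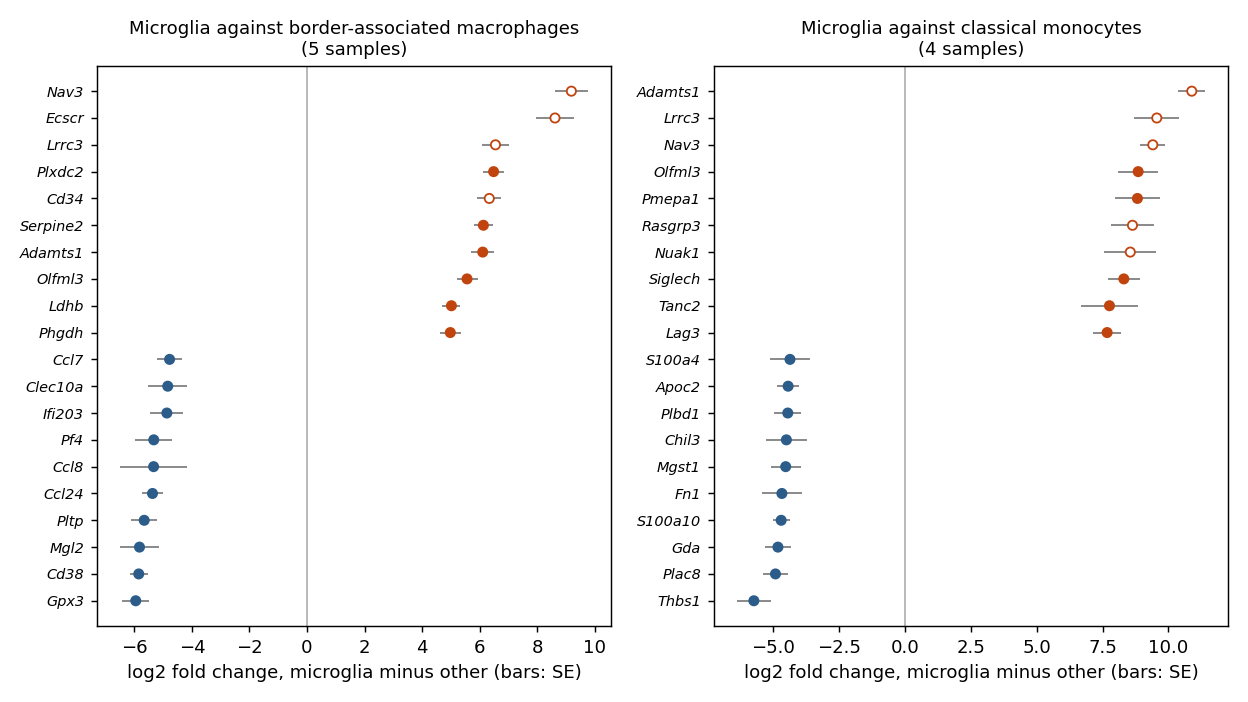
Log2 fold changes with standard errors for the 10 highest and 10 lowest genes of each comparison, microglia against border-associated macrophages (left, 5 samples) and against classical monocytes (right, 4 samples). Open points mark genes with at most 3 UMIs in the other population, whose fitted value is not a measured fold; Nav3, Lrrc3, Adamts1 and Olfml3 are among the highest on both sides.

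The last comparison asked whether tagged microglia differed from untagged ones. The fit with at least 10 cells per sample could not be made, because negative sample 4 alone had so many, so samples with at least 5 microglia were used (4 positive, and the negative samples 2 to 4). No gene of 2370 tested passed an adjusted p under 0.05 by edgeR (0% higher and 0% lower), with 140 below 0.05 before adjustment. DESeq2 called 16 genes, all of them lower in positive microglia. The replicate numbers pair the samples, and with the replicate as a block edgeR called 14 genes (0.591%), all lower in the positive sort. They were Apoe, Rgs1, H2-Aa, Ifitm2, Ifitm3, Ifi27l2a, Fxyd5, Lyz2, S100a11, Msrb1, Hp, Retnlg, Mmp8 and Wfdc21. DESeq2 shared 10 of these 14. Without blocking, the count was 1 without negative sample 2 and 6 without negative sample 3.

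Homeostatic genes showed no call in this fit. Their median log2 fold change over 29 tested genes was 0.30, positive minus negative, beside 0.01 over all genes. Cx3cr1 gave 2265, 1818, 2845 and 2569 CPM in the positive samples and 1629, 572, 1661 and 2252 CPM in the negative samples 1 to 4, and the sorts overlapped (log2 fold change 0.57, SE 0.38, edgeR adjusted p = 0.887). Siglech gave 634 to 1412 CPM against 286 to 481 CPM, without overlap, and did not pass the test (log2 fold change 1.18, SE 0.34, edgeR adjusted p = 0.390), although it passed with no filter on low counts (1.43, edgeR adjusted p = 0.0137). These ranges cover all 8 samples. Over the 7 fitted samples, which leave out negative sample 1, the sorts did not overlap for 7.26% of all genes with the positive sort higher and for 2.32% with it lower.

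Apoe gave 13615, 9573, 9565 and 7418 CPM in the positive samples and 13773, 20168, 31457 and 24532 CPM in the negative samples. The sorts did not overlap, although samples 1 of both sorts were nearly equal. The log2 fold change was −1.46 (SE 0.26, edgeR adjusted p = 0.135) and −1.63 with the replicate block (SE 0.17, edgeR adjusted p = 0.000276). With every sample entered, negative sample 1 included, the blocked value was −1.29 (edgeR adjusted p = 0.0174). Among microglia with 4 or 5 rule genes Apoe gave 6952, 4423, 9972 and 6789 CPM in the positive samples and 101, 3626, 8857 and 25297 CPM in the negative samples, which overlapped, and the blocked log2 fold change over those samples was 0.54 (edgeR adjusted p = 0.999). Those negative values came from 2, 3, 3 and 16 cells. The means of 7034 CPM in the positive and 9470 CPM in the negative sort kept the first direction, as did the fit without the block. The blocked call was also lost when negative sample 2 was left out and negative sample 1 brought in (−1.22, edgeR adjusted p = 0.159), as were those of Rgs1 and Ifitm3 (edgeR adjusted p = 0.875 and 0.118). H2-Aa passed in that fit.

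Of 11 tested antigen presentation genes none passed in the reported fit, without the block and with low counts filtered. Cd74, the class II invariant chain gene, gave 1059, 386, 314 and 192 CPM in the positive samples and 4665, 229, 5649 and 1017 CPM in the negative samples, so that negative sample 2 lay among the positive ones. Its log2 fold change was −2.31 (SE 0.84, edgeR adjusted p = 0.619), and −0.54 without negative sample 3. With the block it was −2.33 (edgeR adjusted p = 0.171), and it passed in the blocked fits with every sample (−2.33, edgeR adjusted p = 0.0110), without cells rich in S100a8 and S100a9 (−2.61, edgeR adjusted p = 5.23e-10) and with negative sample 1 in place of negative sample 2 (−2.93, edgeR adjusted p = 0.000144). The class II chain genes H2-Aa, H2-Ab1 and H2-Eb1 passed in the same 3 fits. Without the block, Cd74 also passed when low counts were not filtered (−1.97, edgeR adjusted p = 1.03e-06). So did H2-Aa (−1.80, edgeR adjusted p = 0.000224), H2-Ab1 (−1.61, edgeR adjusted p = 0.00526) and H2-Eb1 (−2.17, edgeR adjusted p = 3.97e-06). H2-Aa ran from 42.9 to 434 CPM in the positive and from 19.1 to 2110 CPM in the negative samples and also passed in the blocked fit with at least 5 cells (−3.10, SE 0.60, edgeR adjusted p = 0.0332). With 4 or 5 rule genes Cd74 gave 66.9 to 329 CPM in the positive samples and 50.3 to 208 CPM in the negative samples, and the direction turned (0.27 with the block, edgeR adjusted p = 0.999). Among these cells H2-Aa gave 8.70, 8.36, 95.1 and 43.6 CPM in the positive and 0, 0, 95.2 and 129 CPM in the negative samples, with means of 38.9 and 56.0 CPM against 155 and 978 CPM over all microglia. The sorts overlapped, and H2-Aa was not tested there, having too few counts. The means of H2-Ab1 were 51.3 and 43.6 CPM and those of H2-Eb1 21.9 and 4.95 CPM in the positive and negative sort. Cd74 stood at 5140 CPM in the lymphocyte gate.

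Markers of other myeloid cells were high in some negative samples, although the sorts overlapped for the summed lists, and their part in these differences was not tested. The summed neutrophil list was at 1324 to 3917 CPM in the positive microglia and at 1296, 107785, 3434 and 18658 CPM in the negative microglia. The monocyte list was at 977 to 3339 CPM in the positive and at 10144, 13585, 2806 and 1997 CPM in the negative microglia, with Lyz2 at 885 to 1684 CPM against 1643 to 8182 CPM. The border-associated macrophage list was at 929 to 3047 CPM in the positive and at 1555, 3129, 1071 and 1807 CPM in the negative microglia. With microglia above 1% S100a8 and S100a9 left out, the blocked fit called 25 of 2388 genes, 6 higher and 19 lower, and the fit without the block called 0. Of the 14 genes 8 were among the 25, including Apoe, H2-Aa, Rgs1 and Ifitm3. Retnlg, Mmp8 and Wfdc21 were not, whether tested and not called or filtered out for low counts. S100a11, called at −3.05 in the blocked fit with all cells, stood at 0.70 there. The genes lower in that fit also included Mrc1, Pf4, Ms4a7 and F13a1 (−1.74, −2.48, −2.41 and −1.80), which are on the border-associated macrophage list. F13a1 also belongs to the classical monocyte gate and list. The rest of the 16 genes of the border-associated list, such as Stab1, Maf and Dab2, were not called or not tested. With 4 or 5 rule genes the blocked fit, which took in negative sample 1, called 2 genes, Axl and Fxyd5, both lower. Without the block that fit called 0. Axl, a receptor tyrosine kinase gene that responds to phagocytic cues, gave 14.7 to 65.4 CPM in all positive microglia and 114 to 370 CPM in all negative ones. With 4 or 5 rule genes its means were 22.0 ± 6.02 and 160 ± 128 CPM (SD, n = 4 each). Axl was called by DESeq2 but was not among the 14 genes of the blocked fit with at least 5 cells.

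**Figure D4:**
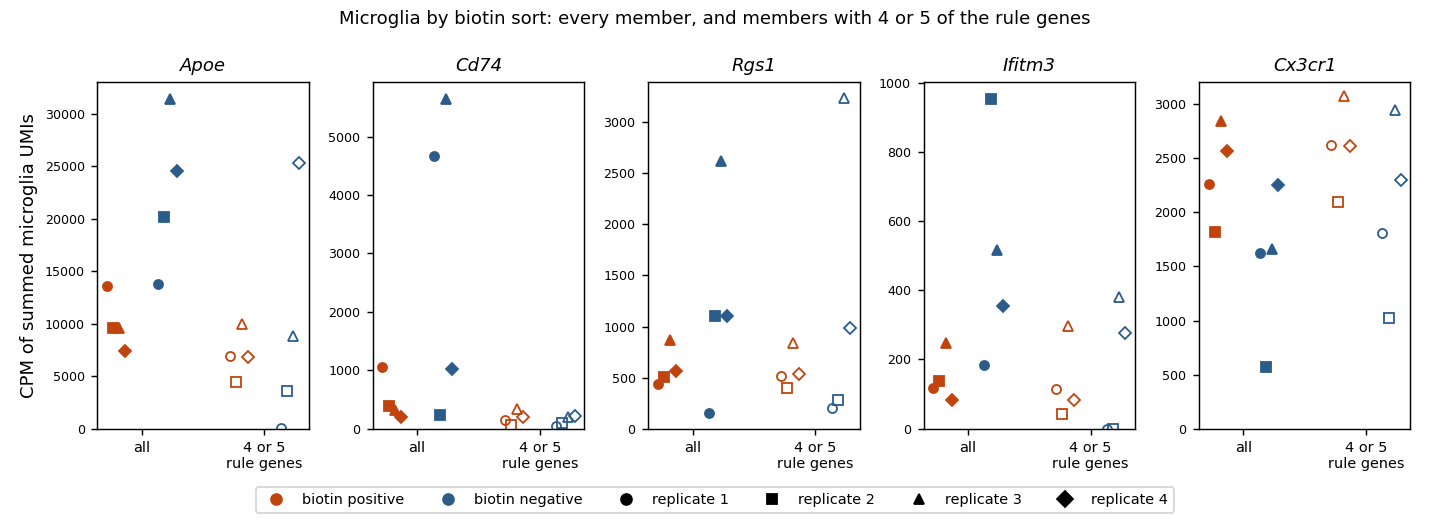
CPM of summed microglia UMIs in each brain sample for 5 genes, for all microglia (filled) and for those with 4 or 5 rule genes (open), by biotin sort and replicate. Among cells with 4 or 5 rule genes the sorts overlap for Apoe and Cd74, with Apoe at 101 CPM in negative sample 1 (2 cells) and at 25297 CPM in negative sample 4 (16 cells).

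Some genes varied among microglia with the replicate number. Replicate 1 of both sorts had little Fos, an immediate early transcription factor gene, with 1030 CPM in the positive and 592 CPM in the negative sample, against 3773 to 5752 CPM in the 6 others. Egr1, another immediate early gene, gave 552 and 777 CPM against 1126 to 3727 CPM. Hspa1a, the inducible heat shock protein 70 gene, was the reverse, at 508 and 740 CPM in replicate 1 and 19.1 to 131 CPM in the 6 others, and Hspa1b gave 456 and 333 CPM against 0 to 18.2 CPM. These levels did not overlap. Fos in border-associated macrophages followed the same split, at 1132 and 682 CPM against 3067 to 7036 CPM, whereas in the neutrophil gate replicate 1 (988 and 921 CPM) lay within the range of the 6 others (668 to 2972 CPM). Egr1 followed the split in both, at 294 and 90.9 CPM against 515 to 3054 CPM in border-associated macrophages. In the neutrophil gate Egr1 gave 113 and 98.9 CPM against 170 to 1243 CPM. In monocytes and lymphocytes replicate 1 overlapped the others for Fos and Egr1. Hspa1b was higher in both samples of replicate 1 than in the 6 others in every gate, at 302.5 and 380 CPM against 0 to 48.0 CPM in monocytes and 412 and 487 CPM against 0 to 54.7 CPM in lymphocytes, and Hspa1a in each gate but that of border-associated macrophages. No test was made, since the split was seen in these values and replicate 1 was 2 samples.

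The early response list as a whole summed to 14431 and 12440 CPM in replicate 1 and to 23660 to 47058 CPM in the others. The inflammatory list summed to 3920 and 1555 CPM against 3950 to 18313 CPM. Ccl4, a chemokine gene made by stimulated microglia, gave 1567, 3466, 8347 and 4860 CPM in the positive samples and 74.0, 1221, 4763 and 3396 CPM in the negative samples. In edgeR's test 5 of 23 early response genes were higher in microglia than in border-associated macrophages and 2 lower, against 12.4% and 12% of all genes. Against monocytes 9 of 22 were higher and none lower, where 20.8% and 21.1% of all genes were called.

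**Figure D5:**
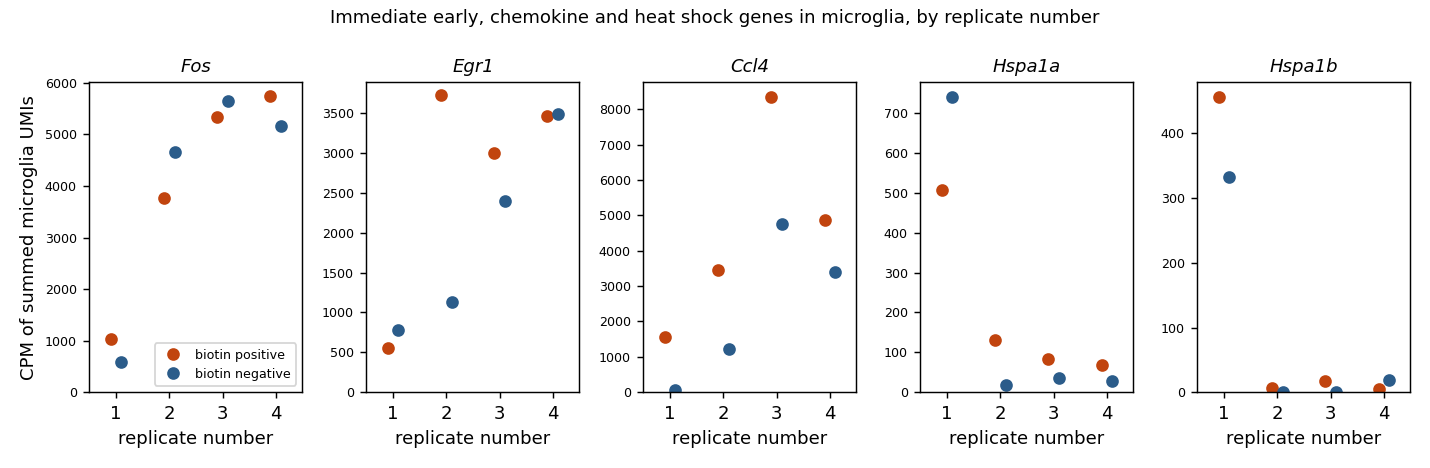
CPM of summed microglia UMIs for Fos, Egr1, Ccl4, Hspa1a and Hspa1b in the 8 brain samples, by replicate number and biotin sort. Both samples of replicate 1 are lowest for Fos and Egr1 and highest for Hspa1a and Hspa1b.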

How the data were processed

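Per the file headers, the deposited matrices hold UMI counts per gene and cell barcode. Those of the 32 intracardiac samples were written by Cell Ranger 6.1.2. Per the submitters' processing notes the build was mm10 and Seurat was used. Whether intronic reads were counted is not given in the sources used here. Per the labels, these samples were multiplexed with CellPlex and sequenced from the 3′ end. The files listed 32285 genes, and strand-sharing or overlapping genes cannot be told apart here. Each sample's microglia counts were summed and scaled to CPM over gene UMIs. Over all barcodes of a brain sample, not its microglia alone, the totals ran from 1331466 to 28691809 UMIs. No doublets were called, and leaving out the 5% of cells with most UMIs was an alternative.

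Gene tests used edgeR 4.0.16 (TMM, filterByExpr, quasi-likelihood, Benjamini-Hochberg at 0.05) in R 4.3.3, with DESeq2 1.42.0 as an alternative; permutation tests used scipy 1.17.1. A standard error is the log2 fold change divided by the root of F. Named genes were the 10 highest and 10 lowest with an adjusted p under 0.05, a mean of at least 50 CPM and 1 direction in every pair (no overlap between sorts), without gate genes. List examples were to be the members with the highest CPM in microglia. Others (Smad7, Ifitm3, Cd74, Fos, Egr1, Selplg, Igf1, Gpr84, P2rx7, Il1a, Ccl2, Lag3 against border-associated macrophages, Trem2, Siglech, H2-Aa and Axl by sort, Hspa1a and Hspa1b) were chosen after their values were seen. Cells, gates and gene lists were chosen with earlier results of these data known. Clec7a and Mx1 were not analysed here, and 1 other gene is not reported here. On counts simulated for the microglia and border-associated macrophage comparison, the edgeR script recovered 28% of 2-fold and 90% of 4-fold changes over 2775 genes, and for the sort comparison 16% and 80% over 2375 genes. These counts were drawn with the same spread for every gene and no replicate effect, and low-count genes were not among the changed ones. They therefore do not measure the power of the tests on the real counts.

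The replicate numbers were checked for pairing on 850 genes. Deviations from the sort means correlated at 0.44, 0.26, 0.30 and 0.46 in same-numbered pairs, beside −0.32 to 0.06 in pairs of different number. Subtracting the sort means itself lowers the latter values, and the check used the same microglia as the blocked fits. Same-numbered samples shared no barcode either, so the numbers were taken to pair the samples. For the sort comparison a minimum of 10 cells left 1 negative sample, so a minimum of 5 cells is reported; positive sample 1 has no partner in its block.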

Additional observations from a re-analysis of the deposited data

Results flagged for a closer look

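Over 48 groups of 4 samples, the highest or lowest value stood apart from the 3 others by Dixon's test 9 times. Chance gives about 1 in 20, but some of the genes, Hspa1a and Hspa1b among them, were chosen after their values were seen. The 9 flags therefore cannot be judged against that rate. In positive sample 1 these were Hspa1a at 508 CPM, Hspa1b at 456 CPM and Stmn1, a gene of dividing cells, at 537 CPM, against 77.0 to 105 CPM for Stmn1 in the other positive samples. In negative sample 1 they were the same genes, Hspa1a at 740, Hspa1b at 333 and Stmn1 at 259 CPM. In negative sample 2 they were S100a8 at 46575 CPM (370 to 7427 in the other negative samples) and Cst3, the cystatin C gene, at 6621 CPM (23592 to 26509 in the others). In negative sample 4 it was Spp1, the osteopontin gene, at 4086 CPM (38.2 to 481 in the others). These negative values rest on 3, 7, 6 and 19 cells.

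Outside the brain, 16 cells of bone, liver and lung passed the 5-gene rule (0.0350% of 45701). Of these 13 were in the positive sort, 3 carried Sparc and 2 carried Sall1. Pf4 stood at 5425 CPM in the 7 cells of lung and at 1953 CPM in the 5 of liver, against 41.0 CPM in brain microglia.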

How the results depend on the processing

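The share of microglia stayed higher in the positive sort under every alternative run, with a difference of 11.4 to 21.2 percentage points at p = 0.0286 (exact permutation test) for other gene thresholds, cell filters and denominators. It was 6.17 points (exact permutation p = 0.8) over microglia and border-associated macrophages alone, an alternative chosen after seeing the data. The replicate block left it at 17.3 with an exact p of 0.125, and leaving out 1 sample gave 8.92 to 22.0 with p = 0.0571, the floor there. The edgeR log2 change in cell numbers ran from 4.30 to 5.59 over left-out samples and was 4.80 with the block. Against border-associated macrophages 675 genes were called; there were 1194 with no count filter, 150 of 463 after thinning to 1000 UMIs, 405 with 5 cells as the minimum and 426 to 836 with 1 sample left out. Against monocytes 899 were called, and 1712, 149 of 324, 1364 and 540 to 1123 under the same settings. Thinning tested fewer genes; the other causes were not tested. For the sorts, 0 genes became 16 with DESeq2, 90 with no count filter, 14 with the replicate block, 18 with the block and every sample, and 0 to 6 with 1 sample left out. Of fits added after seeing the data, that without cells passing a macrophage, monocyte or lymphocyte gate gave 2 and also lost negative sample 2, which fell to 4 cells; leaving out that sample alone gave 1. Added block fits gave 25 (without cells rich in S100a8 and S100a9), 2 (4 or 5 rule genes) and 11 (without negative sample 2). The latter 2 fits also had a minimum of 1 cell and so took in negative sample 1. Of the 14 genes 8, 1 and 5 were among these. The fits tested 2388, 1843 and 2426 genes, and not all of the 14 were tested in each, such as H2-Aa with 4 or 5 rule genes. Without the block, leaving out cells rich in S100a8 and S100a9 gave 0, as did 4 or 5 rule genes. With 4 or 5 rule genes Apoe turned to 0.54 with the block but not without it, and its mean CPM stayed lower in the positive sort (7034 against 9470). Cd74 turned to 0.27 with and 0.27 without the block. S100a11 turned to 0.70 in the blocked fit without cells rich in S100a8 and S100a9. Named genes kept their direction in both population comparisons, with 482 of 498 values on the same side of the threshold against border-associated macrophages and 283 of 287 against monocytes. By sort it was 211 of 268 over 16 genes, with 54 newly past the threshold and the 3 of Apoe and Cd74 turned. Fits with 5 or more cells of 4 or 5 rule genes, without cells passing any other gate, and against cells of 1 gate alone could not be made for want of samples. The 35 negative microglia limit every statement on the sorts.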
